A study of Mus musculus with 7 samples.

Results

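The S100 family was examined in microglia rich in lipid droplets, sorted from the ischemic brain of old and young mice. The 10 members were found by their symbols in the deposited tables, out of 50686 genes listed, and all 10 were among the 17559 genes tested. They are S100a8 and S100a9, S100a4, S100a6, S100a10 and S100a11, S100a1, S100a13, S100a16 and S100b. C57BL/6 male mice underwent a 45 min occlusion of the middle cerebral artery, and microglia were collected by FACS at day 4, by CD11b and CD45, as the cells positive for Bodipy, a dye of neutral lipids. The young group held 4 mice of 3 to 4 months (14C, 18C, 23C and 29C) and the old group 3 mice of 21 to 22 months (2posI, 3posI and 4posI), with 1 library per mouse. Every mouse was ischemic and every library came from Bodipy-positive cells, so each comparison here is one of age within that state, and sham-operated mice and Bodipy-negative cells were not analysed here.

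S100 proteins are small calcium sensors of the EF-hand type that work mostly as dimers. Binding of calcium opens a surface that grips target proteins such as annexins, myosin and tropomyosin, and some members are also released from cells and act on receptors such as RAGE (Ager) and TLR4. In the brain S100b is best known as a protein of astrocytes, whereas S100a8 and S100a9 are abundant in neutrophils and monocytes. S100a4, S100a6, S100a10 and S100a11 are found in many motile and mesenchymal cells and in blood-derived myeloid cells.

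The libraries held 36574088 to 53002379 expected counts, and the 10 S100 genes together took 0.00919% to 0.0186% of the counts in 6 libraries and 0.0579% in old mouse 3posI. Levels are given as library-scaled counts (CPM, with TMM factors) where 1 gene is compared between libraries, and as TPM, which are also scaled by gene length, where genes are compared with each other. Microglia markers were high in every library, with 18478 to 26697 CPM summed over 10 genes in 6 libraries, but 3posI stood apart at 9284 CPM. Of these 10 markers 9 were tested, with 2 log2 fold changes above 0, 1 unadjusted p under 0.05 and 0 adjusted p under 0.05 (edgeR). In 3posI the 8 monocyte markers summed to 2867 CPM, against 181 to 484 CPM in the other 6, and the 6 markers of border macrophages to 1081 CPM, against 69.7 to 364 CPM. Most of this last sum was F13a1 (500 CPM) and Pf4 (315 CPM), and Cbr2 (149 CPM) was also highest in 3posI. Mrc1 (78.8 CPM) and Cd163 (23.2 CPM) were below 2posI (79.2 and 27.4 CPM). Lyve1 stood at 15.4 CPM in 3posI and 11.1 CPM in 14C. Fold changes of the members and of the named partners and receptors are therefore also given without 3posI. In such bulk libraries a change in the share of a cell type and a change in RNA per cell cannot be told apart.

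None of the 10 S100 genes passed an adjusted p of 0.05 between old and young mice in edgeR's quasi-likelihood test, adjusted by Benjamini-Hochberg over 17559 genes, where 0.803% of all genes tested did, 0.57% higher and 0.233% lower in old mice. The fitted log2 fold change was above 0 for 10 of 10 members, against 48.8% of all genes. However, that of S100b turned negative with limma-voom (-0.14) and on the log2(TPM + 0.1) scale (-0.061). Without 2posI it was negative for S100b (-0.37) and S100a16 (-0.30), and without 18C for S100a16 (-0.028). For S100a11 it was -0.15 without both 3posI and 29C. The members share libraries, so these directions are not independent, and the list was chosen with earlier results of these data known. The median over the members was 0.93 on the log2 scale, against -0.014 over all genes tested. Single libraries moved the members' median both ways, to 0.33 without 3posI and to 2.07 without 29C, and it was 1.61 with limma-voom. At an unadjusted p under 0.05 there were 5 members (S100a4, S100a6, S100a10, S100a11 and S100a13), where 18.9% of all genes tested reached it. That number was 0 with limma-voom, 3 with DESeq2, which gave S100a10 and S100a11 no p, and 0 with edgeR when 3posI was left out. limma-voom and DESeq2 also called 0 members at an adjusted p of 0.05, against 0.814% and 7.97% of all genes. The ages overlapped in CPM for every member, whereas no overlap was seen for 17.7% of the genes tested.

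**Figure D1:**
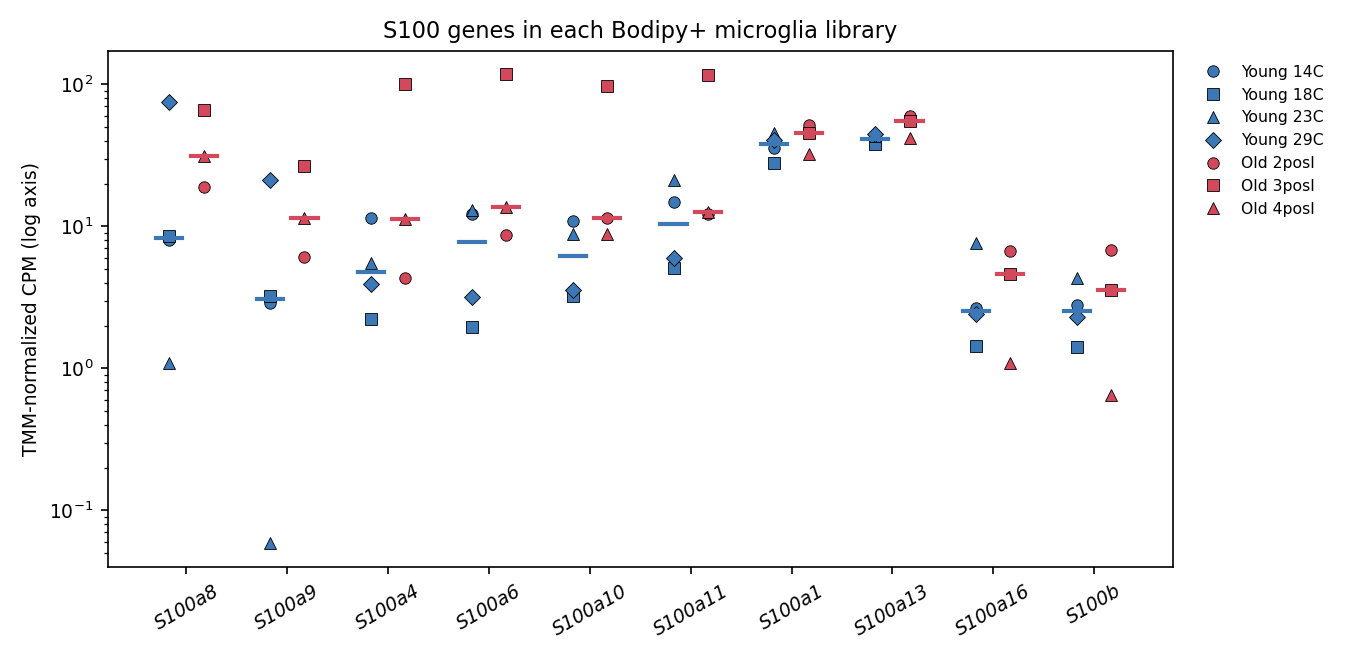
TMM-normalized CPM (log axis) of each S100 gene in each library, with young mice in blue, old mice in red, a marker shape per mouse and a bar at the median of each age. The ages overlap for all 10 genes, and old mouse 3posI lies at 97.0 to 118 CPM for S100a4, S100a6, S100a10 and S100a11, far above the other 6 libraries.

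Per length, S100a13 and S100a1 were the most abundant members, with medians over the 7 libraries of 90.3 and 85.2 TPM. S100a8 followed at 52.7 TPM, S100a11 at 39.0, S100a6 at 37.8, S100a10 at 19.9, S100a4 at 17.4 and S100a9 at 16.1 TPM. S100a16 and S100b were the lowest, at 3.54 and 2.74 TPM. Every pair of neighbours in this order overlapped in range. S100a16 was nevertheless above S100b in 7 of 7 libraries, S100a13 above S100a1 in 6, S100a11 above S100a6 in 6 and S100a9 above S100a16 in 6, while S100a10 was above S100a4 in 3. The order was another one in old mouse 3posI, where S100a11 (321 TPM), S100a6 (317 TPM) and S100a4 (286 TPM) lay above S100a13 (106 TPM) and S100a1 (92.0 TPM). Of the other 7 S100 genes listed, 3 (S100a2, S100a7a and S100z) had 0 counts in every library, and the most counted of the rest, S100a3, had 2 to 14 expected counts.

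S100a8 and S100a9 are the calgranulins, which join into calprotectin, a chelator of zinc and manganese that neutrophils hold in large amounts. S100a8 lies at chr3:90668978-90670035 on the plus strand and S100a9 at chr3:90692632-90695721 on the minus strand (GRCm38, GENCODE vM21), beside each other in the cluster that also holds S100a1, S100a13, S100a16, S100a4 and S100a6. The bases before their transcription starts are shown because both genes varied together across the libraries. They are RefSeq sequence on GRCm38.p6, written 5′ to 3′ on the strand of the gene, and capitals mark TATAAA or the C/EBP core TTNNGNAA, searched on both strands in the 250 bases before the RefSeq start.
S100a8, chr3:90668821-90668977: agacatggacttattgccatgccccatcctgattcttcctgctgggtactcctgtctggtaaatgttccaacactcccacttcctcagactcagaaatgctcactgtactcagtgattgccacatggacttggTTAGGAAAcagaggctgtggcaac
S100a8, chr3:90669029-90669058: caagctttcctcTATAAAagcagctgacac
S100a9, chr3:90695722-90695971: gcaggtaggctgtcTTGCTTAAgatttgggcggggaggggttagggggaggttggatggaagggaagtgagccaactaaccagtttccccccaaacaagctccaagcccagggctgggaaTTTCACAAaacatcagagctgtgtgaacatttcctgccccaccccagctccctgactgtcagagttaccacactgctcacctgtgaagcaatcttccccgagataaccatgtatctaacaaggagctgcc

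The S100a8 window held 1 C/EBP core, beginning at base -117 from the RefSeq start, and a TATAAA at -30. The S100a9 window held C/EBP cores at -236 and -130, and a GGGCGG at -223 that is not in capitals. TTNNGNAA occurs in 36.8% and TATAAA in 12.4% of the 32851 RefSeq promoter windows of 250 bases, so a match to either is common. The GENCODE start of S100a8 lies upstream of the RefSeq start, and the TATAAA falls inside a GENCODE exon of S100a8.

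S100a8 stood at 7.97 CPM in young mouse 14C, 8.61 in 18C, 1.10 in 23C and 74.9 in 29C, and at 18.9 CPM in old mouse 2posI, 66.0 in 3posI and 31.4 in 4posI. The 3 old mice lay above 3 of the 4 young mice, but young mouse 29C was the highest of all and 23C the lowest. The log2 fold change, fitted on counts, came to 0.74 with SE 1.09 (edgeR, adjusted p = 0.75). In TPM, S100a8 averaged 70.3 ± 103 (SD, n = 4) for young and 116 ± 70.3 (SD, n = 3) for old mice. S100a9 stood at 2.90 CPM in 14C, 3.22 in 18C, 0.0588 in 23C and 21.1 in 29C, and at 6.11 CPM in 2posI, 26.7 in 3posI and 11.4 in 4posI. The value in 23C is 3 counts. For S100a9 the highest library was old mouse 3posI, with 29C next, and the ages overlapped through 29C alone among the young. Its log2 fold change, fitted on counts, was 1.11 with SE 1.17 (edgeR, adjusted p = 0.643). In TPM, S100a9 averaged 19.6 ± 26.9 (SD, n = 4) for young and 41.4 ± 29.1 (SD, n = 3) for old mice.

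Both values moved most with 29C and 3posI. Without young mouse 29C the log2 fold change was 2.72 for S100a8 (edgeR, adjusted p = 0.179) and 2.84 for S100a9 (edgeR, adjusted p = 0.269). Without old mouse 3posI it was 0.12 for S100a8 (edgeR, adjusted p = 0.97) and 0.37 for S100a9 (edgeR, adjusted p = 0.914). With 14C, 18C or 23C left out it was 0.35 to 0.48 for S100a8 and 0.70 to 0.89 for S100a9. Without both 29C and 3posI it was 2.10 for S100a8 (edgeR, adjusted p = 0.22). limma-voom, the test of the study's methods, gave 2.03 for S100a8 and 2.79 for S100a9. No one of these settings brought either gene past the threshold.

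The ratio of the calgranulins moved less than their levels. S100a8 had 2.47 to 3.56 times the expected counts of S100a9 in 6 libraries, with the lowest ratio in 3posI and the highest in 29C. The exact 95% Clopper-Pearson intervals of these last ratios, 2.30 to 2.66 in 3posI and 3.31 to 3.82 in 29C, did not overlap. They cover counting error only and were read at the extreme ratios, so they cannot show a difference between the mice. In young mouse 23C the ratio was 18.7, from 56 and 3 counts, with an exact 95% Clopper-Pearson interval of 6.07 to 93.2 that covers counting error only. Across all genes tested S100a9 had a larger between-library SD of log2 CPM than 99.7% of genes (2.82) and S100a8 than 98.4% (2.11), against a median gene of 0.447.

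**Figure D2:**
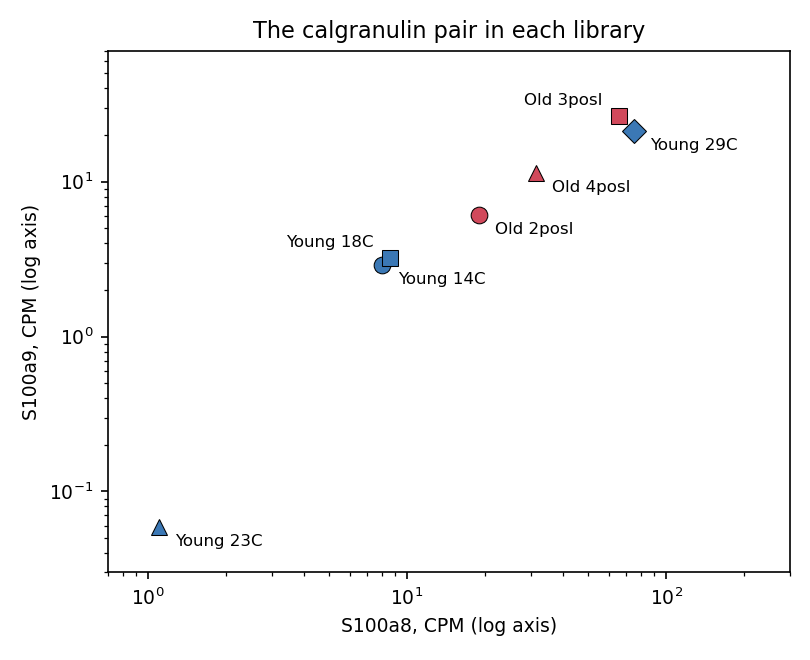
S100a8 against S100a9 in TMM-normalized CPM, both on log axes, with 1 point per library, young mice in blue and old mice in red. The libraries lie along 1 line over a 68.2-fold range of S100a8, from 23C at the low end to 29C and 3posI at the high end, and young mouse 23C falls below the line.

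Other transcripts of neutrophil granules were read beside the calgranulins. Ngp, Camp and Ltf, secondary granule proteins, summed to 0.0216 CPM in 14C, 8.99 in 18C, 0.0392 in 23C and 40.2 in 29C, and to 10.4 CPM in 2posI, 4.96 in 3posI and 24.6 in 4posI. The sum was highest in 29C, as S100a8 was, and near 0 in 14C and 23C. In 3posI the calgranulin sum was high (92.7 CPM) and the sum of these 3 genes low. Other listed genes went the other way there. Mmp8 stood at 59.9 CPM in 3posI, against 2.17 to 15.4 CPM in the other libraries. Mmp9 stood at 20.1 CPM, against 0.895 to 2.79 CPM. Cxcr2 and Prtn3 also peaked in 3posI, whereas Lcn2 and Retnlg peaked in 29C. Over the whole list of 14 neutrophil markers, 12 were tested, 10 had a log2 fold change above 0, 2 had an unadjusted p under 0.05 and 0 an adjusted p under 0.05 (edgeR). The list summed to 189 to 368 CPM in young and 266 to 274 CPM in old mice, most of it Csf3r, at 171 to 323 CPM. Without Csf3r the list summed to 103 CPM in 3posI and 60.7 CPM in 29C. That sum was 37.1 CPM in 4posI, 29.7 in 2posI and 13.5 to 18.3 CPM in the other young mice. Elane was at 0 in 6 libraries, Mpo in 4 and Ly6g in 3. The sums of Ngp, Camp and Ltf and of the list without Csf3r were not part of the plan. The part of these markers in the calgranulin values was not tested.

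S100a4, S100a6, S100a10 and S100a11 are the members that bind annexins and the cytoskeleton, and all 4 had the same extreme libraries. S100a4, or metastasin, binds nonmuscle myosin. It lies at chr3:90603771-90606045 on the plus strand, where it overlaps Gm42674 on the same strand. It stood at 11.4 CPM in 14C, 2.24 in 18C, 5.53 in 23C and 3.96 in 29C, and at 4.35 CPM in 2posI, 101 in 3posI and 11.3 in 4posI. Old mouse 3posI was 8.83 times the next library, and the other 2 old mice lay within the range of the young. The log2 fold change was 2.75 with SE 0.97 (edgeR, adjusted p = 0.184), and 0.44 without 3posI (edgeR, adjusted p = 0.746).

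S100a6, or calcyclin, which binds annexins and the ubiquitin ligase adaptors Cacybp and Sugt1, lies just beside S100a4 at chr3:90612882-90624181. It stood at 12.3 CPM in 14C, 1.95 in 18C, 13.1 in 23C and 3.16 in 29C, and at 8.73 CPM in 2posI, 118 in 3posI and 13.7 in 4posI. Again 3posI was apart, at 8.67 times the next library, 4posI lay just above the highest young mouse and 2posI among the young. The log2 fold change was 2.62 with SE 0.97 (edgeR, adjusted p = 0.199), and 0.56 without 3posI (edgeR, adjusted p = 0.716).

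S100a10, which has lost calcium binding and forms a tetramer with annexin A2 at the plasma membrane, lies outside the cluster at chr3:93555080-93564643. It stood at 10.9 CPM in 14C, 3.22 in 18C, 8.79 in 23C and 3.59 in 29C, and at 11.5 CPM in 2posI, 97.0 in 3posI and 8.90 in 4posI. Here 2posI was just above the young range and 4posI inside it, and 3posI was 8.41 times the next library. The log2 fold change was 2.56 with SE 0.84 (edgeR, adjusted p = 0.164), and 0.62 without 3posI (edgeR, adjusted p = 0.536).

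S100a11, or calgizzarin, a partner of annexin A1, lies next to S100a10 at chr3:93520488-93526287. It stood at 14.8 CPM in 14C, 5.12 in 18C, 21.3 in 23C and 6.04 in 29C, and at 12.2 CPM in 2posI, 117 in 3posI and 12.6 in 4posI. Old mice 2posI and 4posI were below 2 of the young mice, and 3posI was 5.47 times the next library. The log2 fold change was 2.00 with SE 0.84 (edgeR, adjusted p = 0.248), and 0.07 without 3posI (edgeR, adjusted p = 0.961). Expected counts of S100a11 were whole numbers in 2 of 7 libraries (tolerance 0.001), so some reads were divided with another gene, and the pseudogene S100a11-ps had 3 counts in 23C and 0 elsewhere.

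All 4 of these genes were lowest in young mouse 18C, next lowest in 29C and highest in 3posI. Young mouse 29C, the highest for S100a8, was therefore near the bottom for this group, whereas 3posI was high for both. The ratios within the group moved less than the levels: S100a6 had 0.38 to 1.08 times the counts of S100a11, and S100a10 had 0.412 to 0.942 times those of S100a11. Levels spanned 22.8-fold for S100a11 to 60.9-fold for S100a6 between libraries. In TPM, S100a4 averaged 18.1 ± 12.5 (SD, n = 4) for young and 111 ± 152 (SD, n = 3) for old mice, and S100a11 35.7 ± 23.7 and 131 ± 165, so that the SD of the old group exceeded its mean.

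**Figure D3:**
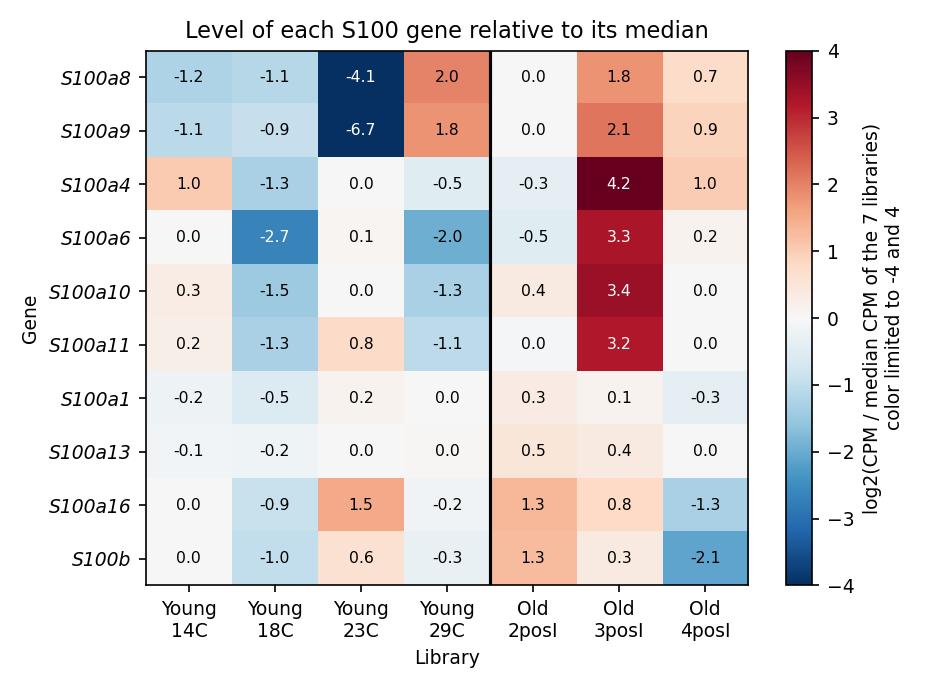
Log2 ratio of each gene's CPM to its median over the 7 libraries, genes in rows and libraries in columns, with red above and blue below the median and colors limited to -4 and 4. S100a4, S100a6, S100a10 and S100a11 share 1 strong red column in old mouse 3posI, S100a8 and S100a9 are red in 29C and 3posI and blue in 23C, and S100a1 and S100a13 stay close to 0 throughout.

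Monocyte markers had the same extreme library. All 8 listed monocyte markers were tested, 8 had a log2 fold change above 0, 6 had an unadjusted p under 0.05 and 0 an adjusted p under 0.05 (edgeR). Their sum was 181 to 484 CPM in young and 215 to 2867 CPM in old mice, and none was at 0 in any library. In 3posI Ly6c2 stood at 162 CPM, against 0.946 to 15.3 CPM in the other 6, and Ccr2 at 231 CPM, against 2.06 to 19.3 CPM. The summed CPM of S100a4, S100a6, S100a10 and S100a11 was 433 in 3posI, against 12.5 to 49.4 in the other 6. In those 6 most of the monocyte sum was Fn1, at 110 to 405 CPM, so the other 7 markers were also summed without it, which was chosen after the values were seen. Their sum was 2013 CPM in 3posI, and then 105 CPM in 4posI, 79.4 in 14C, 67.7 in 2posI, 26.7 in 23C, 19.7 in 29C and 15.1 in 18C. The S100 sum was likewise lowest in 18C (12.5 CPM) and 29C (16.8 CPM), while 23C had 48.8 CPM, next to 49.4 CPM in 14C, 46.5 in 4posI and 36.9 in 2posI. All 6 border macrophage markers also had log2 fold changes above 0, with 0 at an unadjusted or adjusted p under 0.05 (edgeR). The part of these cells in the S100 values was not tested, and without 3posI the fold changes were those given above.

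**Figure D4:**
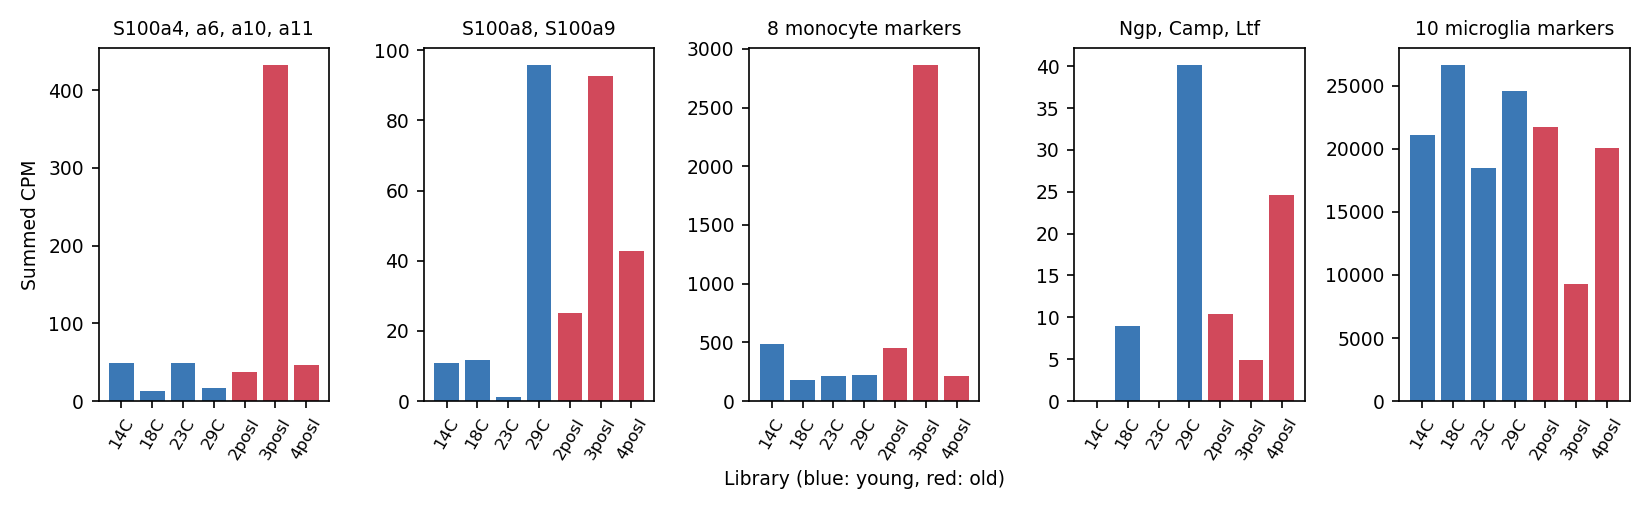
Summed CPM per library in 5 panels, each with its own axis from 0, for S100a4, S100a6, S100a10 and S100a11, for S100a8 and S100a9, for 8 monocyte markers, for Ngp, Camp and Ltf, and for 10 microglia markers, with young mice in blue and old mice in red. The first and the third panel peak in 3posI (433 and 2867 CPM), the second is high in 29C and 3posI (95.9 and 92.7 CPM), the fourth peaks in 29C (40.2 CPM), and the last is lowest in 3posI (9284 CPM). Ngp, Camp and Ltf are part of a list of 14 neutrophil markers, which without Csf3r summed to 103 CPM in 3posI and 60.7 CPM in 29C.

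The promoters of S100a4 and S100a11 are shown because these genes peaked in the same library but lie in different parts of the chromosome. Capitals mark TATAAA in S100a4 and the AP-1 motif TGANTCA in S100a11, RefSeq sequence on GRCm38.p6, plus strand.
S100a4, chr3:90603520-90603769: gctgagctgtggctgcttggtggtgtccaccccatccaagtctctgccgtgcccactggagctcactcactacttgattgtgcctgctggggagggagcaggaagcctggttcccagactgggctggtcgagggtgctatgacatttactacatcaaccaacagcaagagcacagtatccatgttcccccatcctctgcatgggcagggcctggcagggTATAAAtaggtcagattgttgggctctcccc
S100a11, chr3:93520246-93520487: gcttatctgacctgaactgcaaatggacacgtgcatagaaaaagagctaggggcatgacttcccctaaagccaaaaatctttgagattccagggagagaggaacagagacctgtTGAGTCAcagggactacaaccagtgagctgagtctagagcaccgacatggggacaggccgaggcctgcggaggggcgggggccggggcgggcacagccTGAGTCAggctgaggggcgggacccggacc

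S100a4 had a TATAAA at -31 from the RefSeq start and 2 CG dinucleotides in the window of 250 bases, where the median promoter has 6. S100a11 had TGANTCA at -136 and -38, 3 copies of GGGCGG and 11 CG dinucleotides. TGANTCA occurs in 6.75% and GGGCGG in 32.7% of the promoter windows. The S100a6 window held none of the 4 motifs and 3 CG dinucleotides. Promoters were matched for 9 of the 10 members, and the missing one is S100a10. The 3 genes with windows here thus had no motif of the 4 in common, since S100a6 held none. The part of these motifs in the levels was not tested.

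S100a1 and S100a13 were the steadiest members. S100a1 is best known from heart muscle, where it acts on calcium release, and S100a13 takes part in the release of Fgf1 and Il1a, which lack a signal peptide. They are read in opposite directions from a shared stretch of chromosome 3: S100a1 (chr3:90511034-90514392, minus strand) starts so that 42 bases part it, in GENCODE vM21, from the start of S100a13 (chr3:90514435-90524581, plus strand). That stretch is shown because the 2 genes had nearly equal counts, on the plus strand and with no motif in capitals.
Between S100a1 and S100a13, chr3:90514393-90514434: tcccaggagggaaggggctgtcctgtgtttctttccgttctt

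S100a1 stood at 35.7 CPM in 14C, 28.1 in 18C, 45.5 in 23C and 40.9 in 29C, and at 51.4 CPM in 2posI, 45.2 in 3posI and 32.2 in 4posI. Old mouse 2posI was the highest, the other 2 old mice lay among the young, and the log2 fold change was 0.19 with SE 0.21 (edgeR, adjusted p = 0.651). S100a13 stood at 39.8 CPM in 14C, 38.0 in 18C, 43.0 in 23C and 44.5 in 29C, and at 59.6 CPM in 2posI, 55.5 in 3posI and 42.2 in 4posI. For S100a13 2 of the 3 old mice lay above every young mouse and 4posI lay among the young. Its log2 fold change was 0.34 with SE 0.14 (edgeR, adjusted p = 0.239), with 0.24 to 0.47 when each library was left out in turn. Without 3posI it was 0.30 for S100a13 and 0.15 for S100a1. In TPM it averaged 86.0 ± 4.16 (SD, n = 4) for young and 102 ± 10.2 (SD, n = 3) for old mice, the tightest of the members in both ages. S100a1 had 0.74 to 1.06 times the counts of S100a13 in every library, 3posI included (0.815). In S100a1 and S100a13 the SD of log2 CPM over the 7 libraries was larger than that of 35.4% and 25.3% of genes. Their promoter windows had 8 and 13 CG dinucleotides and none of the 4 motifs.

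S100a16 and S100b were the least abundant. S100a16, a widely expressed member, lies at chr3:90537254-90543151. It stood at 2.68 CPM in 14C, 1.45 in 18C, 7.61 in 23C and 2.41 in 29C, and at 6.70 CPM in 2posI, 4.65 in 3posI and 1.10 in 4posI. The highest library was young, the lowest old, and the log2 fold change was 0.22 with SE 0.68 (edgeR, adjusted p = 0.886). S100b, the classic astrocyte member, is the one outside chromosome 3, at chr10:76253853-76261159, where its span overlaps that of Dip2a on the opposite strand. Non-stranded libraries cannot tell the strands apart, but expected counts of S100b were whole numbers in 7 of 7 libraries (tolerance 0.001). S100b stood at 2.81 CPM in 14C, 1.41 in 18C, 4.33 in 23C and 2.30 in 29C, and at 6.82 CPM in 2posI, 3.58 in 3posI and 0.648 in 4posI. The old group held both its highest and its lowest library, and the log2 fold change was 0.43 with SE 0.67 (edgeR, adjusted p = 0.765). Without 3posI it was 0.45 for S100b and 0.13 for S100a16, and without 2posI -0.37 for S100b and -0.30 for S100a16. S100a16 has 2 RefSeq promoters, of which 1 held TGANTCA at -192 and GGGCGG at -30 and the other none of the 4 motifs, and the S100b window held none.

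Both genes ranked the libraries almost alike, with 23C and 2posI at the top and 18C and 4posI at the bottom. Aqp4, an astrocyte water channel, ranked the libraries in the same order as S100b over all 7 libraries, from 5.24 CPM in 2posI through 3.79 in 23C to 0.972 in 4posI, and Gfap stood at 52.8, 61.1 and 4.51 CPM in those 3. This order was noticed after the values were seen, and other astrocyte markers ranked the libraries differently. Slc1a3 was highest in 18C (102 CPM), the second lowest library of S100b, and Sox9 stood at 2.50 CPM in 2posI, the highest of S100b, and at 6.43 CPM in 23C. Of the 8 astrocyte markers all were tested, 4 had a log2 fold change above 0 and 0 had an unadjusted p under 0.05 (edgeR). Their sum was 118 to 164 CPM in young and 80.8 to 215 CPM in old mice, much of it Slc1a3, and none was at 0. Of the 8 oligodendrocyte markers 6 were tested, 4 were above 0 and 1 had an unadjusted p under 0.05 (edgeR), with sums of 122 to 146 CPM in young and 128 to 170 CPM in old mice. The 6 markers of mural cells and fibroblasts summed to 241 CPM in 23C, the highest library of S100a16, and to 12.4 to 59.4 CPM in the other 6. This was likewise noticed after the values were seen, and the other libraries did not follow it. In 2posI, the next highest of S100a16 (6.70 CPM), the sum was 27.7 CPM. It was 59.4 CPM in 14C and 52.8 CPM in 29C, where S100a16 stood at 2.68 and 2.41 CPM. The part of these cells in the values of S100a16 and S100b was not tested.

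Over all members an exact two-sided permutation test compared mean log2(CPM + 1), 3 against 4 libraries. Its p ran from 0.0857 for S100a13 to 0.886 for S100b, where this design allows no p below 0.0286. Which library mattered most differed between the members. Leaving out 3posI gave the lowest fold change of S100a4, S100a6, S100a10 and S100a11 as well as of S100a8 and S100a9, whereas leaving out 2posI gave the lowest of S100a1, S100a13, S100a16 and S100b.

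**Figure D5:**
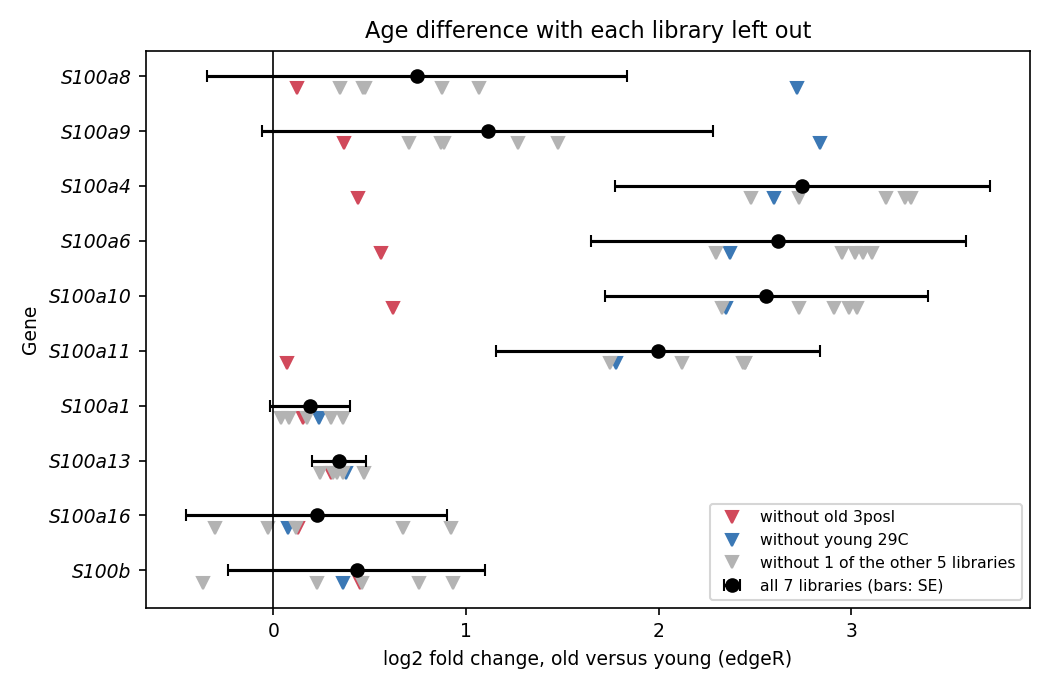
Log2 fold change of old versus young mice (edgeR) for each S100 gene, with black points and SE bars for all 7 libraries and triangles for each fit with 1 library left out, red without old mouse 3posI, blue without young mouse 29C and gray without 1 of the others. S100a4, S100a6, S100a10 and S100a11 move from 2.00 to 2.75 down to 0.07 to 0.62 without 3posI, S100a8 and S100a9 move to 2.72 and 2.84 without 29C, and S100a13 stays between 0.24 and 0.47.

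The proteins that S100 members bind were then read as a list of 18 partners, of which 17 were tested. None passed an adjusted p of 0.05 (edgeR), 12 had a log2 fold change above 0 and 5 below, and the median was 0.25. At an unadjusted p under 0.05 there were 6 of the 17, with 18.9% of all genes as the background, and 5 of these were higher in old mice. In 4 of the 17 the ages did not overlap, with a background of 17.7%. The 3 with the smallest p were Sugt1, Myh9 and Anxa1. Sugt1, a co-chaperone bound by S100a6, stood at 33.5, 34.6, 33.3 and 33.5 CPM in young mice (14C, 18C, 23C, 29C) and at 49.0, 50.5 and 40.2 CPM in old mice (2posI, 3posI, 4posI). The ages did not overlap, and the log2 fold change was 0.46 with SE 0.12 (edgeR, adjusted p = 0.0969).

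Myh9, the heavy chain of nonmuscle myosin IIA and the known partner of S100a4, stood at 168, 182, 129 and 134 CPM in the young mice and at 123, 100 and 106 CPM in the old. It was lower in each old than in each young mouse, with a log2 fold change of -0.48 and SE 0.16 (edgeR, adjusted p = 0.167). Anxa1, the partner of S100a11, stood at 17.0, 2.37, 18.4 and 7.96 CPM in the young and at 18.3, 149 and 20.3 CPM in the old mice. Like S100a11 it peaked in 3posI, with a log2 fold change of 2.45 with SE 0.86 (edgeR, adjusted p = 0.182), or 0.75 without that library. Outside the naming rule and picked after its values were seen, Ahnak, a giant scaffold that binds S100a10, ran at 22.0, 5.06, 17.8 and 6.58 CPM in the young and 15.6, 157 and 23.3 CPM in the old mice. Anxa2, the other subunit of the S100a10 tetramer and likewise picked afterwards, spread less, at 162, 72.2, 225 and 126 CPM in the young and 159, 437 and 107 CPM in the old mice.

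Of the 8 receptors and co-receptors of extracellular S100 proteins all were tested, 2 had a log2 fold change above 0 and 6 below, with a median of -0.28. None passed an adjusted p of 0.05 (edgeR), 2 of the 8 had an unadjusted p under 0.05 (background 18.9%), and 2 of the 8 had ages that did not overlap (background 17.7%), both lower in old mice. Ly96, or MD-2, the co-receptor of TLR4, stood at 20.6, 20.6, 12.1 and 16.1 CPM in young and 9.57, 9.69 and 8.68 CPM in old mice. Every old mouse lay below every young one, with a log2 fold change of -0.90 with SE 0.21 (edgeR, adjusted p = 0.0852). Alcam, an adhesion molecule that binds S100b, stood at 5.26, 2.89, 9.41 and 3.18 CPM in young and 6.70, 35.9 and 23.8 CPM in old mice. It was above all young mice in 3posI and 4posI, with a log2 fold change of 2.09 with SE 0.57 (edgeR, adjusted p = 0.121), or 1.56 without 3posI.

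Cd14, which hands ligands to TLR4, stood at 1922, 1869, 1875 and 2220 CPM in young and 916, 1832 and 1645 CPM in old mice. Its ages did not overlap either. The log2 fold change was -0.43 with SE 0.24 (edgeR, adjusted p = 0.371), and it was -0.18 without 2posI and -0.62 without 3posI. Without 3posI it was 0.40 for Sugt1, -0.42 for Myh9 and -0.93 for Ly96. Ager, the gene of RAGE, had 31 to 59 counts per library (0.647 to 1.27 CPM), and Tlr4 stood at 39.4 to 62.4 CPM in young and at no more than 43.8 CPM in old mice. DESeq2 brought Sugt1 (adjusted p = 0.0113), Ly96 (adjusted p = 0.00383) and Alcam (adjusted p = 0.0042) past the threshold, where it called 7.97% of all genes.

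For 6 members the genes with the most similar pattern were sought among 9845 genes that averaged 5 CPM or more in some age, by Pearson's r of log2 CPM over the 7 libraries. These r are descriptive, since all points share libraries and depth and 3posI weighs on most of them. S100a4 was closest to Aim1 (r = 0.995), Rab11fip1 (0.994) and B4galt5 (0.986). S100a6 was closest to Pfkp (0.997), Ahnak (0.995) and Cd24a (0.991), and S100a10 to Thap7 (0.997), Mefv (0.994) and Sh3pxd2b (0.993). S100a11 was closest to Crip1 (0.997), Iqgap1 (0.993) and Mfsd6 (0.993). Iqgap1 is a scaffold of the actin cortex, and Crip1 a small LIM protein.

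S100a8 was closest to H2-T24 (0.989), S100a9 (0.978) and D17H6S53E (0.968), and S100a9 to S100a8 (0.978), Fcgr1 (0.969) and H2-T24 (0.968). The calgranulins were thus the one pair of members that named each other among their 3 closest genes. Without the 2 libraries farthest from the median of the member, the r were 0.948 to 0.996 for S100a4, S100a6, S100a10 and S100a11 (without 18C and 3posI), and 0.896 to 0.997 for S100a8 and S100a9, where S100a8 with S100a9 had 0.997. Spearman's rho lay between 0.893 and 1.0 for all 18 of these pairs. The genes were picked from 9845 for the highest r over these same libraries. High values of the reduced r and of rho therefore follow in part from that choice and are no separate check of the likeness.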

How the data were processed

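Non-stranded Smart-seq2 libraries were made from Bodipy+ microglia, 4 from young and 3 from old males. The authors used skewer for trimming, STAR for mapping to GRCm38 and RSEM for quantifying GENCODE m15 genes, and the submitters' processing notes also name FastQC 0.11.5. The authors deposited RSEM's expected counts, not normalized, with TPM and FPKM values scaled within each library. FPKM values were not used. RSEM divides reads that fit several genes, which can blur overlapping or copied genes. No molecular identifiers are named, so intervals cover counting error only.

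Expected counts were rounded. Of 18173 genes with an expected count above 10 in some library, 17559 were tested, without those on the sex chromosomes and the mitochondrial genome. Coordinates came from GENCODE vM21, which holds 50462 of the 50686 identifiers. TMM factors and the quasi-likelihood test came from edgeR 4.0.16 (R 4.3.3), with age as the only term, as the labels give no batch or pairing. CPM used a prior count of 1 on the log2 scale, and the permutation test used log2(CPM + 1). Each library is 1 mouse, so p-values measure the spread between mice and their library preparation together.

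Alternatives were limma-voom (limma 3.58.1), the test of the study's methods, DESeq2 1.42.0, other factors and filters, sex chromosomes kept, an effective-length offset, log2 TPM with limma and each library left out. The fit was checked on simulated data. The members, partner, receptor and marker lists were chosen with earlier results of these data known. Named were all members, per list the partners past the threshold or otherwise the 3 with the smallest p, and for 6 members the 3 genes of highest r with a mean of at least 5 CPM. Other marker lists were T and NK cells (0.209 to 2.59 CPM summed), B cells (9.66 to 22.6 CPM) and endothelial cells (49.1 to 109 CPM), with 0 genes at an adjusted p under 0.05 (edgeR). Of those tested, 4 of 6, 0 of 3 and 2 of 6 had an unadjusted p under 0.05.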

Additional observations from a re-analysis of the deposited data

Results flagged for a closer look

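In 16 genes (the members and the named partners and receptors) the 4 young libraries were checked for a value far from the others, as the largest gap at either end divided by the range, against Dixon's critical value for 4 values. If values are normally distributed, chance marks about 1 gene in 20, or 0.8 of 16, and 4 were marked. The check was made on CPM, and log2 CPM was not checked. As log2 ratios to the median of all libraries, S100a8 stood at 1.99 in 29C and -4.1 in 23C. S100a9 stood at 1.79 in 29C and -6.7 in 23C. The old group of 3 was not checked, so 3posI could not be marked. S100a8 had a gap of 0.898 of its range, with young mouse 29C at 74.9 CPM and the other young mice at 1.10 to 8.61 CPM. S100a9 had a gap of 0.849, with 29C at 21.1 CPM and the others at 0.0588 to 3.22 CPM. The calgranulins share their libraries and are not independent cases. Cd14 had a gap of 0.85, again by 29C, at 2220 CPM against 1869 to 1922 CPM. Sugt1 had a gap of 0.866 through 18C, at 34.6 CPM against 33.3 to 33.5 CPM, a small distance in a narrow range.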

How the results depend on the processing

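Over 17 planned settings and 1 chosen after seeing the data (without both 3posI and 29C), 0 S100 genes passed the threshold in each. Of 180 values of the members' log2 fold changes, 173 kept their direction and 7 changed sign, and none passed the threshold, although S100a10 and S100a11 had no p with DESeq2. With each library left out S100a16 lay between -0.30 (without 2posI) and 0.92 (without 23C), with -0.028 without 18C, and it was -0.015 without both 3posI and 29C. S100b was -0.14 with limma-voom, -0.061 on log2(TPM + 0.1), and between -0.37 (without 2posI) and 0.93 (without 4posI) with each library left out. S100a11 was -0.15 without both 3posI and 29C. Partners and receptors past the threshold were 0 except with DESeq2, which called 3. Genes past the threshold over all tested numbered 141, and 1399 with DESeq2, 288 without a filter on low counts, 71 with log2(TPM + 0.1), 64 with log2(TPM + 1), 1 to 159 with each library left out (1 without 14C, 18C or 2posI, 2 without 29C, 14 without 23C, 85 without 4posI) and 3 without both 3posI and 29C. The cause of these moves was not tested. No paired analysis was possible because the labels give the ages no shared replicate numbers. With a biological coefficient of variation of 37.2% and 3 against 4 mice, the spread between libraries limits what can be called, and it was not split into mouse and preparation. S100b, the member lowest in TPM, had 30 to 229 counts, and S100a9 had 3 in 23C.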
